A study of Mus musculus with 16 samples.

Results

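The dual-specificity MAP kinase phosphatases were followed at the RNA level in mouse embryonic stem cells in which a RAF construct upstream of ERK was switched on and MEK was then inhibited. The 10 genes (Dusp1, Dusp4, Dusp5, Dusp6, Dusp7, Dusp8, Dusp9, Dusp10, Dusp14 and Dusp16) were taken by name, as the rows whose Ensembl identifier carries those symbols, out of 52636 gene identifiers in the count table. The cells were the line CRAFR26, embryonic stem cells that carry a c-RAF kinase construct activated by 4-hydroxytamoxifen (4OHT), grown in N2B27 medium with a GSK3 inhibitor, a MEK inhibitor (PD03) and LIF. For 48 h before the experiment, PD03 was replaced in every group by 250 nM of the FGF receptor inhibitor PD17. The 0h group received nothing more, the 2h and 4h groups received 250 nM 4OHT for those times, and the rev group received 4OHT for 4 h and then MEK inhibitor for a further 2 h. Each group had 4 libraries, made of 2 replicates from each of 2 clones, named clone 4 and clone 8. All groups carried the construct and the receptor inhibitor, no group received the solvent of 4OHT alone, and no group was kept for 6 h without MEK inhibitor, so the effects of 4OHT itself and of longer culture cannot be told apart from those of the construct and of MEK inhibition.

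MAP kinase phosphatases remove the phosphates from both the threonine and the tyrosine of the activation loop of ERK, JNK and p38 and so switch these kinases off. Many of their genes are themselves switched on by ERK, which makes them a negative feedback on the cascade. They fall into a nuclear, inducible class (Dusp1, Dusp4, Dusp5), a cytoplasmic class that prefers ERK (Dusp6, Dusp7, Dusp9), a class that prefers JNK and p38 (Dusp8, Dusp10, Dusp16), and Dusp14, a small atypical member without the kinase-docking domain of the others. In embryonic stem cells ERK activity promotes the exit from naive pluripotency, and the phosphatases are among the brakes on it.

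The promoters of 8 of the 10 genes matched an entry of the RefSeq promoter table (GRCm38.p6), each a window of 300 bases that runs from 250 bases before the transcription start to 50 after it. Those of Dusp1, Dusp5 and Dusp6 are printed on the strand of the gene because these 3 genes all rose with induction while their windows differed in the motifs searched. Capitals mark every match, on either strand, to the cyclic AMP response element TGACGTCA, its half-site TGACGT, the ETS site CCGGAAG, the AP-1 site TGANTCA or the CArG box, the serum response factor motif.
Dusp1, chr17:26508423-26508722, minus strand: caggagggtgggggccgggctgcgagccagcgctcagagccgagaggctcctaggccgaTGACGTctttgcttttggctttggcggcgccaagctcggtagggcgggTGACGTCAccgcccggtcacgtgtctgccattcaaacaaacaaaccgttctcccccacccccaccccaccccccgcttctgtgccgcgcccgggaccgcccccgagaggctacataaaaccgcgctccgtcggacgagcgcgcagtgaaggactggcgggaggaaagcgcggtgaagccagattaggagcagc
Dusp5, chr19:53528895-53529194, plus strand: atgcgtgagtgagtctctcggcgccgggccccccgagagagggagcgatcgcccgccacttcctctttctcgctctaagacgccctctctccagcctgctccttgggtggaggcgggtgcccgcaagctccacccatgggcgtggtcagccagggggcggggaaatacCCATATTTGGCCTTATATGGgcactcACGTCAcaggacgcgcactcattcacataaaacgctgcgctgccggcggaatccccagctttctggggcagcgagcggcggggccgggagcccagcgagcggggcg
Dusp6, chr10:99262981-99263280, plus strand: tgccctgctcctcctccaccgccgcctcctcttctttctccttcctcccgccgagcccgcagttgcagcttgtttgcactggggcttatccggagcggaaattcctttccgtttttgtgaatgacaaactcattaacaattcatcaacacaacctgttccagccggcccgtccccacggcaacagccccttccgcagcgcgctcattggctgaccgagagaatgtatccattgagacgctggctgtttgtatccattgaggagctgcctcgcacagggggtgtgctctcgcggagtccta

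In the Dusp5 window, 2 CArG boxes, CCATATTTGG and CCTTATATGG, lay side by side and began 82 and 72 bases before the start, and a reverse-strand half-site began 56 bases before it. In the Dusp1 window a full TGACGTCA began 143 bases before the start and a separate half-site 191 bases before it. The Dusp6 window held none of these letters. A CArG box was present in 1.63% of all 32851 windows in the table, TGACGTCA in 1.79% and TGACGT in 7.51%, and every TGACGTCA also counts as a match to TGACGT. The ETS site CCGGAAG, found in 8.86% of all windows, and TGANTCA, found in 7.81%, were in none of the 8 phosphatase windows. Dusp8 carried TGACGTCA at 2 places although its transcript was hardly detected. GGGCGG, the GC box, was in 7 of the 8 windows, against 35.7% of all windows. The 8 windows held 57.3 to 78.7% G and C, against a median of 52.7% over all windows, and windows of like content were not compared. The Dusp6 window, which lacked the GC box, had the lowest content. Such matches describe letters only, and no binding was measured.

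Libraries of RNA freed of ribosomal RNA held between 2172651 and 12680303 counts. The 8 most abundant gene models held 42.0 to 80.4% of the counts of a library. They were led by CT010467.1 (mean 20.8%) and Gm26917 (12.8%), and Lars2 (6.39%) and the mitochondrial ribosomal RNAs were among the others. Which RNA their reads came from was not examined. The group mean of their share was 60.7% ± 2.39 (SD, n = 4) for 0h, 58.5% ± 4.05 for 2h, 54.1% ± 9.31 for 4h and 65.9% ± 10.6 for rev. The replicate 2 library of clone 8 in rev stood apart with 80.4%, and the replicate 2 library of clone 4 at 2h had the fewest counts. Leaving both out together, an alternative chosen after seeing the data, changed none of the counts of called phosphatases in the 5 comparisons below. All 8 embryonic stem cell markers examined were detected, with a summed level of 1662 to 2285 CPM (counts scaled to a common library size). Of 4 mesoderm markers, 3 passed the low-count filter, and their list summed to 5.77 to 8.96 CPM at 0h, 8.09 to 16.2 CPM at 2h, 16.3 to 25.5 CPM at 4h and 6.96 to 10.2 CPM in rev, with Mesp1 at 0 in all 2h and rev libraries. The 4 neural markers, all tested, summed to 53.4 to 70.1 CPM at 0h, 43.7 to 60.9 CPM at 2h, 40.8 to 50.2 CPM at 4h and 63.4 to 70.8 CPM in rev, so that 4h overlapped neither 0h nor rev. That sum was mostly Tubb3 (mean 29.2 CPM at 0h and 15.1 CPM at 4h) and Nes (31.0 and 26.2 CPM), while the means of Sox1 and of Pax6 (0.839 and 2.27 CPM) were higher at 4h, with overlapping libraries. The trophoblast list, with 2 of 4 genes tested, summed to 32.1 to 49.8 CPM at 0h and 21.5 to 37.7 CPM at 4h; Tfap2c did not overlap between these groups (31.5 to 47.1 and 20.3 to 29.1 CPM), and the mean of Cdx2 was 1.32 and 4.73 CPM with overlapping libraries. The primitive endoderm and fibroblast lists summed to at most 7.66 CPM in any library. Single stem cell markers differed in direction, with Nanog at 394 ± 92.9 CPM at 0h and 250.0 ± 78.5 CPM at 4h, and Sox2 at 172 ± 5.51 and 226 ± 27.3 CPM. The part of these changes and of the abundant models in the results below was not tested. In bulk RNA, a change in the share of cells that express a gene and a change in RNA per cell cannot be told apart, and the p-values measure the spread between these libraries, since the labels do not say which replicates were separate cultures.

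A core of 4 phosphatases, Dusp1, Dusp4, Dusp5 and Dusp6, were higher at 2h and 4h of 4OHT than at 0h and lower in rev than at 4h. Dusp14 was called higher at 2h and in rev. Of the JNK and p38 class only Dusp10 and Dusp16 were tested, and neither was called higher in edgeR's test. Of the 10 genes, 9 passed the filter on low counts, Dusp8 being the exception. After 2 h of 4OHT, 5 were higher than at 0h (Dusp1, Dusp4, Dusp5, Dusp6 and Dusp14), where 11.4% of all 12215 tested genes were called higher, and 1 was lower (Dusp10), where 9.68% were called lower. After 4 h, Dusp1, Dusp4, Dusp5 and Dusp6 were higher, 4 of 9 against 17.2% of all tested genes, and 0 were lower against 16.8%. That count of 0 comes from edgeR's fit over both clones, and DESeq2 also gave 0. At an unadjusted p under 0.05, 2 genes (Dusp10 and Dusp16) were lower. Within single clones Dusp10 was called lower in clone 4 and Dusp16 in clone 8. Between 2h and 4h, 2 rose further (Dusp4 and Dusp6), against a background of 3.8%, and 2 fell back (Dusp1 and Dusp14), against 3.52%. From 4h to rev, 4 fell (Dusp1, Dusp4, Dusp5 and Dusp6), where 8.43% of all genes fell, and 1 rose (Dusp14), where 7.93% rose. Compared with 0h, rev libraries were higher for 4 (Dusp4, Dusp5, Dusp7 and Dusp14), against 12.4% of all genes, and lower for 1 (Dusp16), against 9.86%. Of those 4, Dusp7 had been called at neither 2h nor 4h and Dusp14 at 2h but not at 4h. With scaling by library size alone, genes called over the whole table split, higher to lower, into 554 and 327 in place of 2098 and 2048 at 4h, 88 and 12 in place of 464 and 430 between 2h and 4h, 57 and 1671 in place of 969 and 1030 from 4h to rev, and 105 and 905 in place of 1518 and 1204 in rev against 0h. The median log2 fold change over the 9 phosphatases was 0.58 at 2h and 0.23 at 4h, next to -0.02 over all tested genes at both times. A gene was called at an adjusted p under 0.05 in edgeR's quasi-likelihood test with Benjamini-Hochberg adjustment over all 12215 genes, and all p-values below are from that test unless another is named.

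**Figure D1:**
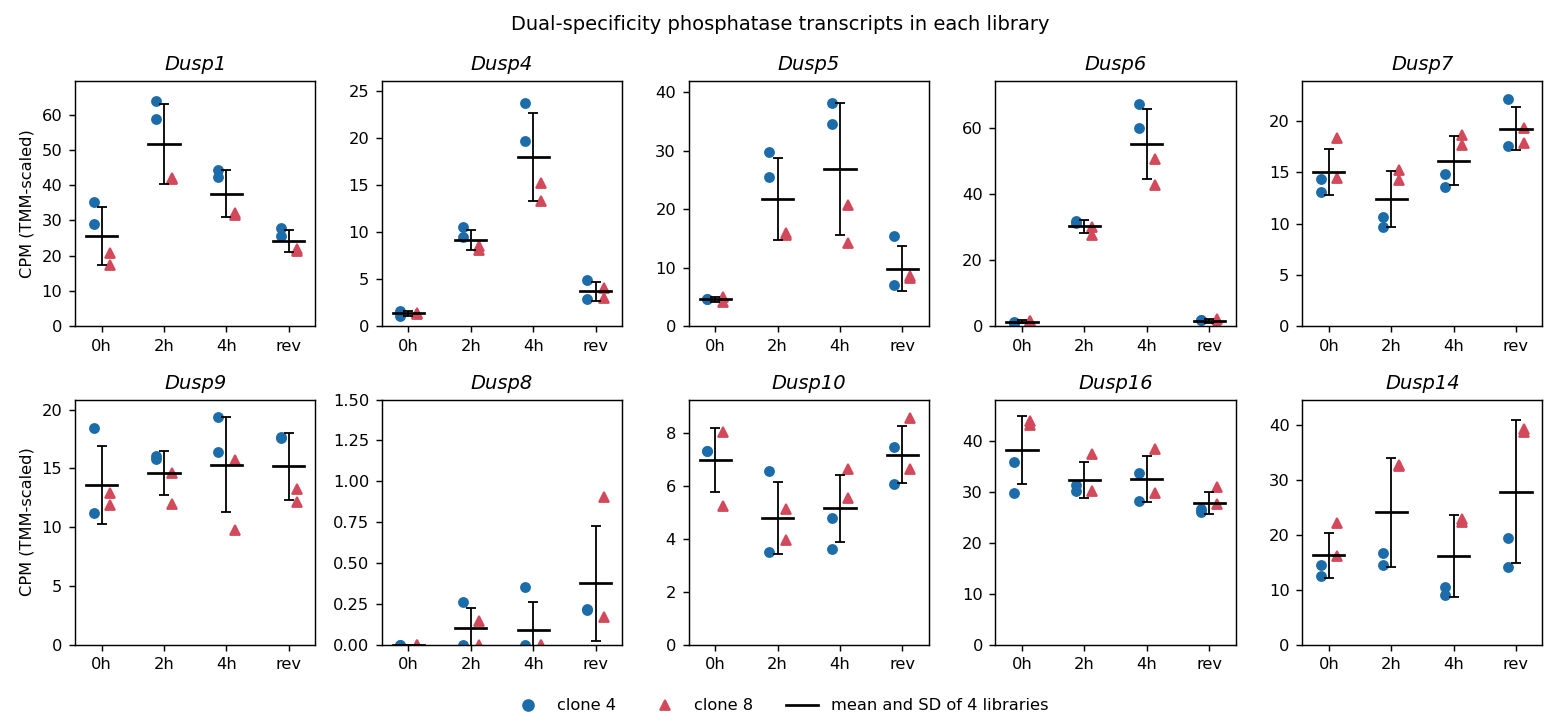
Level of each of the 10 phosphatase transcripts, in CPM on a linear axis from 0, by group; points are libraries (circles clone 4, triangles clone 8) and bars the mean and SD of 4 libraries. Dusp6, Dusp4, Dusp5 and Dusp1 are high at 2h and 4h, Dusp14 is high in rev, and Dusp8 stays at or below 0.901 CPM.

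**Figure D2:**
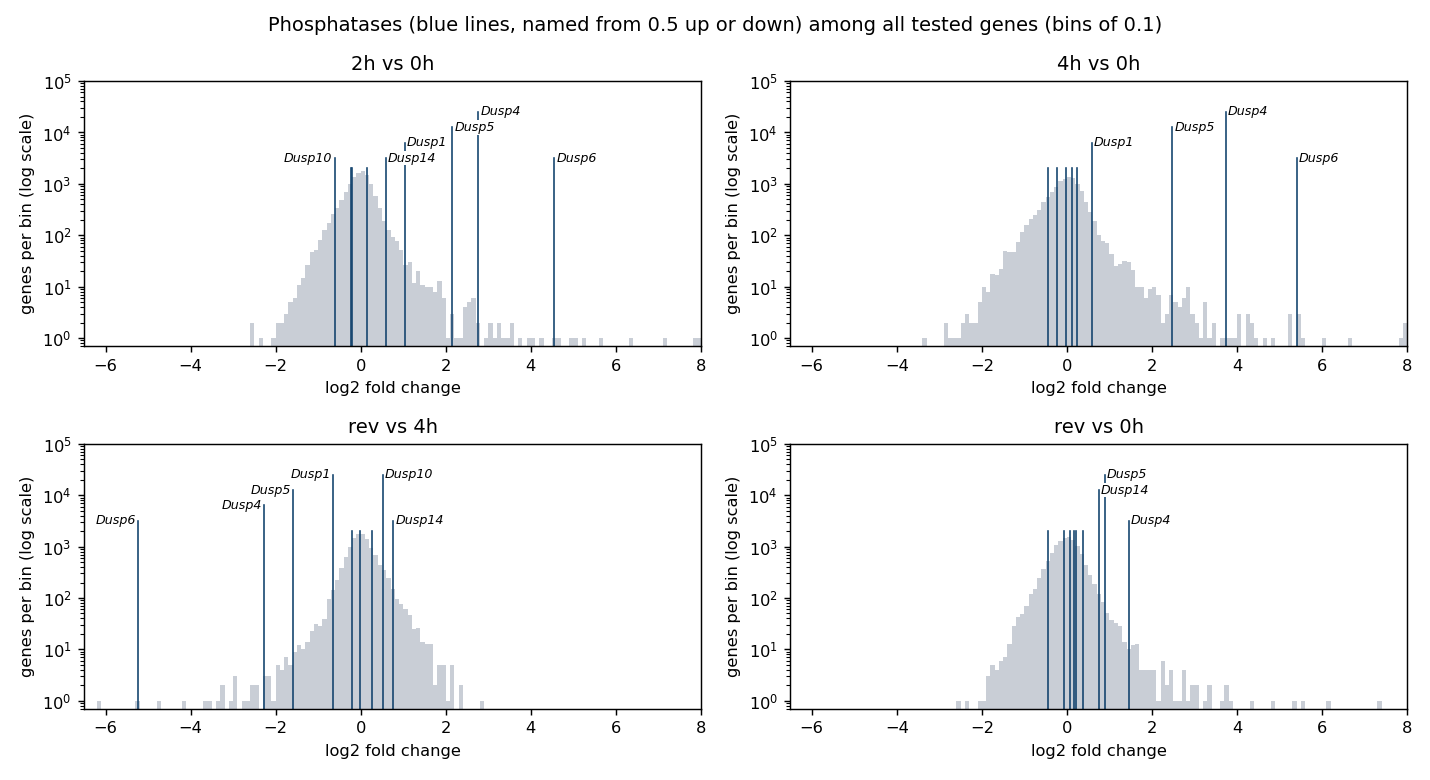
Number of tested genes per bin of log2 fold change (log axis) in 4 comparisons, with the 9 tested phosphatases as vertical lines. Dusp6 lies at the edge of the distribution at 2h (4.54), at 4h (5.40) and from 4h to rev (-5.24), and close to 0 in rev against 0h (0.16).

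Dusp6, which encodes the cytoplasmic ERK phosphatase MKP-3, changed most from 0h to 2h, from 0h to 4h and from 4h to rev. Its gene lies on chromosome 10 from 99263231 to 99267489 (mm10), with 3132 bp of exon. At 0h it was close to silent, at 1.36 and 0.597 CPM in clone 4 and 1.45 and 1.60 CPM in clone 8. At 2h it reached 31.3 and 32.0 CPM in clone 4 and 27.6 and 30.0 CPM in clone 8. All libraries at 2h lay far above those at 0h, and at 4h every library was higher again: 67.4 and 59.9 CPM in clone 4, 50.5 and 42.9 CPM in clone 8. In rev it was back at 1.71, 1.74, 0.663 and 2.25 CPM, a range that overlapped the 0h libraries. The log2 fold change was 4.54 ± 0.18 (SE) at 2h, a 23.3-fold rise (adjusted p = 1.37e-19), and 5.40 ± 0.17 at 4h, a 42.3-fold rise (adjusted p = 8.11e-23). Among the 12215 tested genes it ranked 10 by size of rise at 2h and 9 at 4h. Between 2h and 4h it gained another 0.86 ± 0.10 (adjusted p = 1.60e-07). From 4h to rev it fell by 5.24 ± 0.17 on the log2 scale (adjusted p = 3.99e-22), and ranked 2 of all genes by size of fall. Rev and 0h did not differ beyond the error (0.16, 95% interval -0.57 to 0.89, adjusted p = 0.797), an interval that rests on 4 to 16 counts per library.

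The other cytoplasmic ERK phosphatases behaved differently. Dusp7 (MKP-X) was at 13.1 to 18.3 CPM at 0h, 9.63 to 15.2 CPM at 2h, 13.6 to 18.6 CPM at 4h and 17.6 to 22.2 CPM in rev. Its groups overlapped at every step of the induction, and neither 2h (log2 fold change -0.21 ± 0.12, adjusted p = 0.229) nor 4h (0.11 ± 0.12, adjusted p = 0.530) passed the test against 0h. It was called higher in rev than at 0h (0.38 ± 0.12, adjusted p = 0.0273). That call was lost without the low-count filter (adjusted p = 0.0703), without the clone term (0.156) and with only these 2 groups fitted (0.0607). It was also lost without either the replicate 2 library of clone 4 at 0h (adjusted p = 0.0708), the replicate 2 library of clone 8 at 0h (0.115), or either clone 4 library of rev (0.0606 and 0.133). With scaling by library size alone the log2 fold change of Dusp7 was 0.05, where the median of all genes was -0.32 in place of -0.0068. Dusp9 (MKP-4), an X-linked gene, lay between 9.74 and 19.4 CPM over all 16 libraries. Its 4 groups overlapped throughout, and none of its 5 comparisons was called in edgeR (adjusted p from 0.211 to 0.946, and none at an unadjusted p under 0.05). The 95% interval of its log2 fold change at 4h ran from -0.05 to 0.51.

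Dusp4 (MKP-2, nuclear) rose at 2h and again at 4h, as Dusp6 did, with smaller rises from 0h, and stayed above its 0h level in rev. Its gene occupies chromosome 8 from 34807297 to 34819894 (mm10). At 0h it stood at 1.63 and 1.04 CPM in clone 4 and at 1.29 and 1.39 CPM in clone 8. By 2h these had become 9.45 and 10.5 CPM in clone 4 and 8.53 and 8.09 CPM in clone 8. At 4h they were 19.7 and 23.7 CPM in clone 4 and 13.3 and 15.3 CPM in clone 8. No library overlapped between any of these 3 groups, and the 4h libraries of clone 4 were above those of clone 8. In rev it had come down to 4.90, 2.82, 2.98 and 4.06 CPM, below every 2h library but above every 0h library. The log2 fold change was 2.76 ± 0.22 at 2h (adjusted p = 8.21e-12), 3.73 ± 0.20 at 4h (1.73e-16) and -2.28 ± 0.17 from 4h to rev (1.67e-12). From 2h to 4h it was 0.97 ± 0.14 (adjusted p = 6.80e-06), next to 0.86 ± 0.10 for Dusp6. In rev Dusp4 remained 2.73-fold above 0h (log2 1.45 ± 0.28, adjusted p = 0.000244).

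Dusp5, a nuclear phosphatase specific for ERK, rose early and then changed little. It lies on chromosome 19 from 53529109 to 53542431 (mm10), and 547 bp of its 2473 bp of exon overlap AC137853.2 on the opposite strand, from which reads cannot be told apart without strand. Its 0h libraries were tightly grouped, at 4.62 and 4.62 CPM in clone 4 and 4.02 and 5.02 CPM in clone 8. At 2h, clone 4 reached 29.8 and 25.4 CPM and clone 8 reached 16 and 15.6 CPM. At 4h, clone 4 stood at 34.5 and 38.1 CPM and clone 8 at 20.7 and 14.2 CPM. All induced libraries were above all 0h libraries, clone 4 was above clone 8 in each, and 2h overlapped 4h. The rise was 2.15 ± 0.19 on the log2 scale at 2h (adjusted p = 1.45e-10) and 2.48 ± 0.19 at 4h (1.84e-12), and the step from 2h to 4h missed the threshold (0.32 ± 0.14, adjusted p = 0.184). In rev it was at 6.93, 15.4, 8.29 and 8.56 CPM, with the replicate 2 library of clone 4 the highest and none within the 0h range. It fell by 1.58 ± 0.17 from 4h (adjusted p = 2.70e-08) and stayed 0.89 ± 0.23 above 0h (0.00582). The last call was lost with scaling by library size alone (adjusted p = 0.113) and without the clone term (0.0642).

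Dusp1 (MKP-1), the immediate-early phosphatase that acts on p38, JNK and ERK, was already well expressed before induction. Its annotated span is on chromosome 17 from 26505590 to 26562128 (mm10), on the minus strand. The promoter window printed above (26508423 to 26508722) lies inside that span and not at its outer end. At 0h Dusp1 was at 35.3 and 28.9 CPM in clone 4 and 17.2 and 20.7 CPM in clone 8. It peaked at 2h, at 58.8 and 63.9 CPM in clone 4 and 42.2 and 41.8 CPM in clone 8, above every 0h library. At 4h it had receded to 44.2, 42.4, 32.1 and 31.6 CPM, and in rev to 25.6, 27.8, 21.9 and 21.2 CPM. The clones kept apart in every group, 2h was the highest within each, and rev lay below the 0h range in clone 4 and above it in clone 8. The log2 fold change was 1.03 ± 0.09 at 2h (adjusted p = 5.23e-11) and 0.59 ± 0.09 at 4h (6.40e-06). The step down from 2h to 4h was -0.45 ± 0.08 (adjusted p = 0.000483), and that from 4h to rev -0.65 ± 0.10 (6.24e-06). Rev and 0h did not differ beyond the error (-0.07, 95% interval -0.27 to 0.14, adjusted p = 0.684). The step from 2h to 4h was not called with scaling by library size alone (adjusted p = 0.995) or without the clone term (0.317), and the step to rev was not called without the clone term (0.0512).

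**Figure D3:**
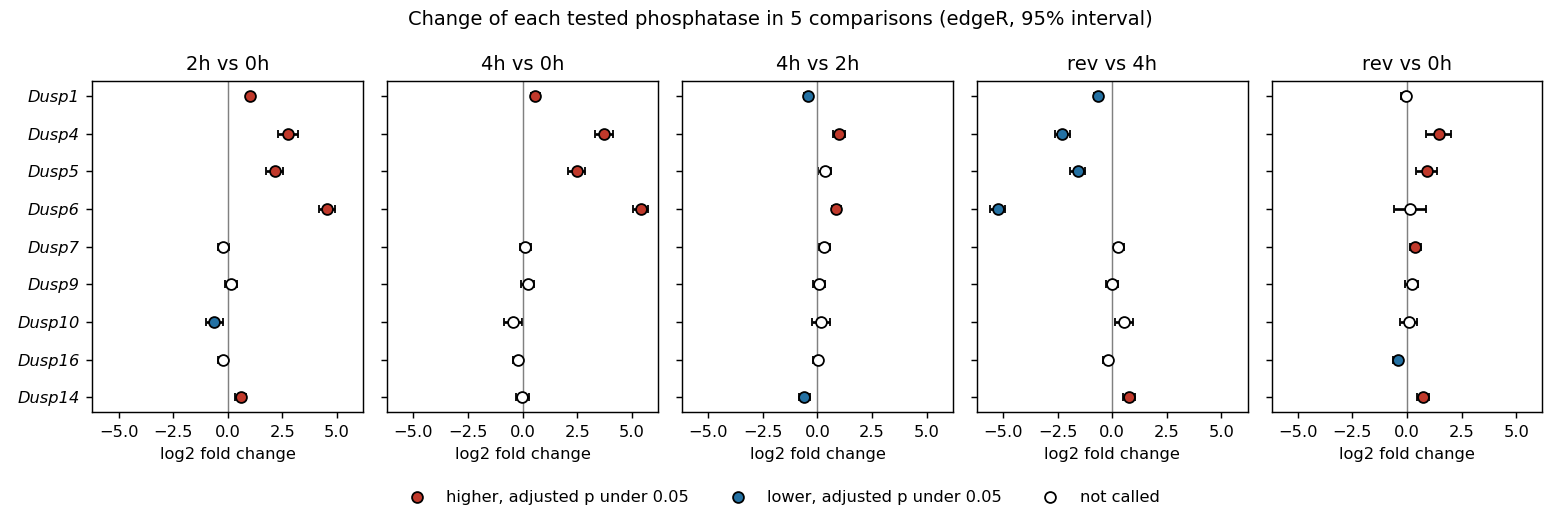
Fitted log2 fold change of the 9 tested phosphatases with its 95% interval in 5 comparisons; filled points have an adjusted p under 0.05 in edgeR, red for higher and blue for lower. Dusp6, Dusp4, Dusp5 and Dusp1 lie to the right at 2h and 4h and to the left from 4h to rev, and Dusp9 is open in all 5 panels.

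Of the phosphatases that prefer JNK and p38, only Dusp10 and Dusp16 were tested. Neither was called higher in edgeR's test in any of the 5 comparisons, nor by DESeq2. Of all tested genes, 3.8 to 17.2% were called higher per comparison, so the absence of calls among so few genes does not set the class apart. At an unadjusted p under 0.05, the 1 such gene higher was Dusp10 from 4h to rev (log2 0.52 ± 0.20, adjusted p = 0.0765). That change was called when only these 2 groups were fitted (0.52, adjusted p = 0.0466) and without the replicate 1 library of clone 8 at 4h (0.65, 0.0423). Dusp16 (MKP-7) had 35.8 and 29.8 CPM in clone 4 and 43.9 and 43.2 CPM in clone 8 at 0h, 30.2 to 37.5 CPM at 2h, 28.3 to 38.4 CPM at 4h, and 26.6, 26.1, 31.0 and 27.5 CPM in rev. The groups overlapped, but in clone 4 both rev libraries were the lowest, and in clone 8 they lay below both 0h libraries. It was called lower in rev than at 0h (log2 -0.43 ± 0.10, adjusted p = 0.00223). Its differences from 0h at 2h (-0.24 ± 0.09, adjusted p = 0.0675) and 4h (-0.23 ± 0.10, 0.0703) missed the threshold. Within clone 8 it was called lower than at 0h at 2h (-0.36 ± 0.12, adjusted p = 0.0284), at 4h (-0.37 ± 0.13, 0.0435) and in rev (-0.54 ± 0.14, 0.00804). Within clone 4 none of these was called (adjusted p = 0.874, 0.795 and 0.202). The clone difference was not called at 2h (adjusted p = 0.612) or 4h (0.546), and that in rev against 0h was not tested. Dusp10 (MKP-5) was scarce, at 7.33, 7.31, 8.04 and 5.24 CPM at 0h, 3.5, 6.57, 3.97 and 5.11 CPM at 2h, 3.63 to 6.65 CPM at 4h and 6.08 to 8.56 CPM in rev. At 2h, 3 of 4 libraries were below all 0h libraries, and the difference was called (-0.61 ± 0.19, adjusted p = 0.0202). The call was lost when any of 4 libraries was left out, namely the replicate 2 library of clone 4 at 0h (adjusted p = 0.0709), the replicate 1 library of clone 8 at 0h (0.0791) and the replicate 1 libraries of clone 4 (0.0826) and clone 8 (0.0904) at 2h. It was also lost with scaling by library size alone (adjusted p = 0.398) and without the clone term (0.0793). Neither clone 4 (adjusted p = 0.136) nor clone 8 (0.156) gave the call alone. At 4h Dusp10 was called lower within clone 4 (-0.80 ± 0.27, adjusted p = 0.0322) but not within clone 8 (-0.06 ± 0.28, 0.908). The clone difference at 4h was not called (adjusted p = 0.472). Dusp8 had 0 counts in all 4 libraries at 0h and at most 3 counts in any library. That did not exceed the limit of 3 counts, which a count of 0 allows and which equals 0.213 to 1.35 CPM depending on the TMM-scaled size of the library, so no fold change was computed for it.

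Over both clones, Dusp14 (MKP-6) rose at 2h, was not called different from 0h at 4h and rose again from 4h to rev. In clone 4 its libraries were at 14.4 and 12.5 CPM before induction, 14.4 and 16.6 CPM at 2h, 9.02 and 10.4 CPM at 4h and 14.1 and 19.3 CPM in rev. In clone 8 they were at 22.0 and 16 CPM at 0h, 32.5 and 32.7 CPM at 2h, 22.2 and 22.9 CPM at 4h and 38.6 and 39.2 CPM in rev. Clone 8 was above clone 4 in every group, and within each clone the 4h libraries lay below the 2h and the rev libraries. The log2 fold change was 0.58 ± 0.13 at 2h (adjusted p = 0.00108), -0.01 ± 0.14 at 4h (0.961), -0.59 ± 0.13 from 2h to 4h (0.00272), 0.76 ± 0.13 from 4h to rev (9.76e-05) and 0.75 ± 0.13 in rev against 0h (0.000104). Within clone 8 the rise at 2h (0.80 ± 0.13, adjusted p = 4.45e-05) and the excess of rev over 0h (1.06 ± 0.15, 8.33e-06) were called, and within clone 4 neither was (0.18 ± 0.19, adjusted p = 0.664, and 0.28 ± 0.18, 0.356). The clone difference in the 2h response was not called (0.63 ± 0.24, adjusted p = 0.370), and that in rev against 0h was not tested. The rise from 4h to rev was called within clone 4 (0.73 ± 0.17, adjusted p = 0.00390) and within clone 8 (0.79 ± 0.16, 0.00167). Its 4 calls were all lost with scaling by library size alone (adjusted p from 0.292 to 0.800) and without the clone term (from 0.208 to 0.370). Scaling by library size alone put the median log2 fold change of all genes at -0.41 from 4h to rev and at -0.32 in rev against 0h, and there that of Dusp14 was 0.34 in both comparisons.

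The 4 induced phosphatases returned towards their 0h level in rev by different shares. As a share of the log2 rise from 0h to 4h, the fall in rev was 111% for Dusp1, 97.1% for Dusp6, 63.9% for Dusp5 and 61.1% for Dusp4. In clone 4 alone the shares were 155% for Dusp1, 84.3% for Dusp6, 62.3% for Dusp5 and 58.0% for Dusp4, and in clone 8 alone 76.2%, 110%, 56.0% and 62.2% in the same order. Dusp4 and Dusp5 ended between the 0h and the 4h level, while for Dusp1 and Dusp6 rev was not called different from 0h. Timing differed as well: at 2h Dusp1 had made 176% of its 4h change, Dusp5 86.9%, Dusp6 84.1% and Dusp4 74.0%. These shares are descriptions without a test, and both contrasts in the share of the rise lost in rev use the same 4h libraries.

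Ratios of 2 phosphatases within a library, which do not depend on scaling, were tested by a two-sided exact permutation test over libraries (4 against 4, 18 tests chosen after seeing the data, Benjamini-Hochberg adjustment). The log2 ratio of Dusp4 to Dusp6 was -1.63 ± 0.27 (SD) at 4h and 1.25 ± 0.64 in rev, so that in counts not divided by length Dusp6 exceeded Dusp4 at 4h and Dusp4 exceeded Dusp6 in rev. The log2 ratio of Dusp5 to Dusp6 went from -1.12 ± 0.40 to 2.59 ± 0.81, and that of Dusp1 to Dusp6 from -0.55 ± 0.10 to 3.94 ± 0.73. From 2h to 4h the ratio of Dusp1 to Dusp4 fell by 1.39 and that of Dusp1 to Dusp6 fell by 1.30. In each of these 5 the groups did not overlap, and the permutation p was 0.0286, the smallest that 4 against 4 libraries can give. After adjustment over the 18 tests it was 0.0571, so none of the ratios passed 0.05. The ratio of Dusp4 to Dusp6 was -1.72 ± 0.12 at 2h, and its difference from 4h did not pass (exact permutation p = 0.543).

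The make-up of the phosphatase transcripts differed between the groups. Levels of different genes were compared as CPM per kb of merged exon. At 0h the order of the group means was Dusp14 (8.35 CPM per kb), Dusp1 (7.72), Dusp9 (5.0), Dusp16 (4.90), Dusp7 (4.49), Dusp10 (2.29), Dusp5 (1.85), Dusp4 (0.488), Dusp6 (0.400) and Dusp8 (0). The order of the first pair differed between clones: Dusp1 was above Dusp14 in both clone 4 libraries (10.7 against 7.40 and 8.74 against 6.44 CPM per kb), and Dusp14 above Dusp1 in both clone 8 libraries (11.3 against 5.20 and 8.24 against 6.26). The libraries of neighbours in that order of means overlapped except between Dusp7 and Dusp10, Dusp5 and Dusp4, and Dusp6 and Dusp8. At 4h Dusp6 led with 17.6 ± 3.43 CPM per kb (13.7 to 21.5), above every library of Dusp1 but overlapping those of Dusp5 (5.75 to 15.4), and was followed by Dusp1 (11.3 ± 2.02), Dusp5 (10.9 ± 4.57), Dusp14 (8.29 ± 3.83) and Dusp4 (6.57 ± 1.70), whose libraries overlapped from each to the next. In rev Dusp14 had the highest mean again, at 14.3 ± 6.69 CPM per kb, but its libraries (7.23 to 20.2) overlapped those of Dusp1 (6.40 to 8.40), and in the replicate 1 library of clone 4 it lay below Dusp1 (7.23 against 7.73). Dusp6 ranked 9 of 10 at 0.508 ± 0.213.

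Summed over the 10 genes, the level (mean ± SD, n = 4) was 35.5 ± 3.36 CPM per kb for 0h, 64.5 ± 1.82 for 2h, 71.0 ± 7.61 for 4h and 44.7 ± 4.99 for rev. The share of Dusp6 in this sum went from 1.12% ± 0.388 at 0h to 14.9% ± 0.597 at 2h, 24.7% ± 2.64 at 4h and 1.15% ± 0.480 in rev. The cytoplasmic ERK class as a whole held 27.8% of it before induction, 29.0% at 2h, 39.4% at 4h and 26.8% in rev, and the nuclear class 28.5%, 42.8%, 40.0% and 28.5%. The JNK and p38 class shrank from 20.3% ± 1.92 at 0h to 8.89% ± 0.990 at 2h and 8.43% ± 1.94 at 4h, and stood at 13.5% ± 1.52 in rev. Its own summed level moved far less, from 7.19 ± 0.843 CPM per kb at 0h to 5.74 ± 0.654 at 2h, 5.89 ± 0.795 at 4h and 6.0 ± 0.482 in rev. Without division by length, the share of Dusp16 at 0h was 31.1% instead of 13.8%, because its merged exons span 7798 bp.

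**Figure D4:**
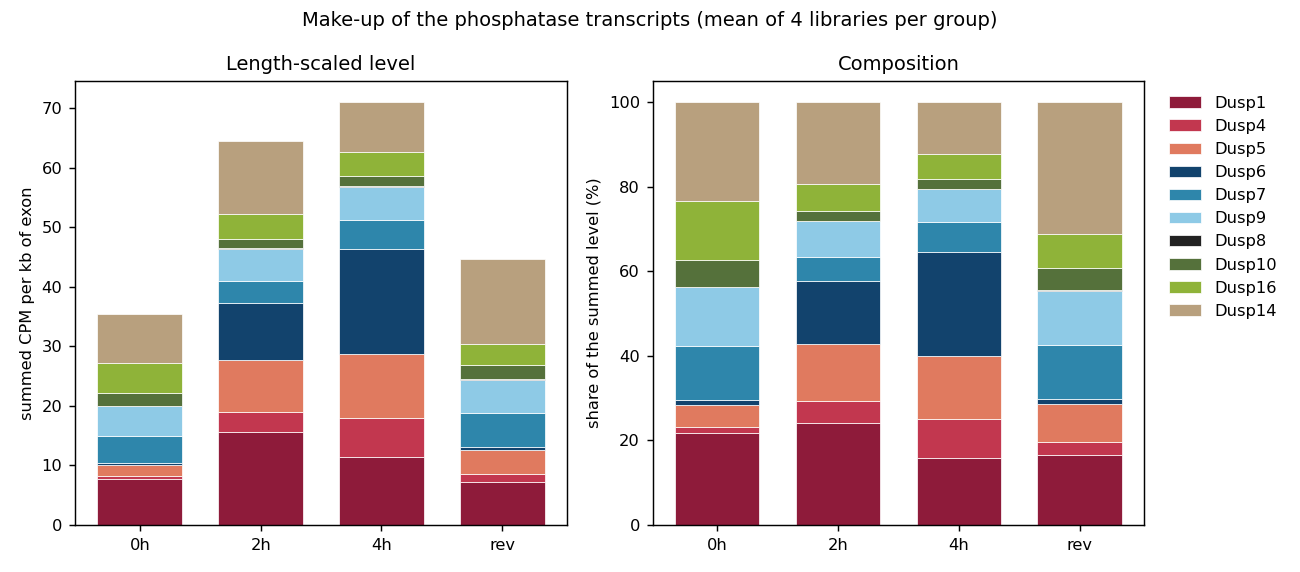
Mean level of the 10 phosphatases per group, stacked as summed CPM per kb of exon (left, from 0) and as percent of that sum (right). The sum is highest at 4h (71.0), and the band of Dusp6 widens from 1.12% at 0h to 24.7% at 4h.

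The clones shared the direction of every called change, and differed in sign for some changes that were not called. Each called phosphatase changed in the same direction in clone 4 and clone 8, for 6 of 6 at 2h, 4 of 4 at 4h, 4 of 4 between 2h and 4h, 5 of 5 from 4h to rev and 5 of 5 in rev against 0h, although a call from a fit over both clones favours such a match. Over all 9 tested members, called or not, the signs matched for 9 in the 2h comparison with 0h, for 8 in that of 4h and for 6 in that of rev, and for 7 between 2h and 4h and 9 from 4h to rev. Dusp14 at 4h was at -0.45 ± 0.19 in clone 4 and 0.27 ± 0.16 in clone 8. In rev against 0h, Dusp6 was at 0.97 ± 0.51 in clone 4 and -0.48 ± 0.52 in clone 8, and Dusp1 at -0.25 ± 0.13 and 0.17 ± 0.15. Within clone 4, Dusp6 rose by 6.17 ± 0.24 at 4h and Dusp5 by 2.97 ± 0.23 on the log2 scale, and within clone 8 by 4.92 ± 0.21 and 1.95 ± 0.25. The test of that difference between clones did not pass for Dusp6 (-1.25 ± 0.52, adjusted p = 0.312) or Dusp5 (-1.02 ± 0.38, adjusted p = 0.242). No response of the 9 phosphatases was called different between the clones in edgeR, 0 at 2h where 0.0901% of all genes were called, 0 at 4h where 0.311% were, and 0 from 4h to rev where 0.00819% were. At an unadjusted p under 0.05, the response differed for 2 at 2h (Dusp5 and Dusp14), for 3 at 4h (Dusp5, Dusp6 and Dusp14) and for 1 from 4h to rev (Dusp5). Levels did differ: averaged over groups, 3 phosphatases were higher in clone 8 (Dusp14 by 1.04 ± 0.10, Dusp7 by 0.25 ± 0.09 and Dusp16 by 0.22 ± 0.07 on the log2 scale), against 15.4% of all genes. In clone 8, 5 were lower (log2 differences of -0.72 ± 0.12 for Dusp5, -0.51 ± 0.06 for Dusp1, -0.40 ± 0.12 for Dusp4, -0.34 ± 0.10 for Dusp9 and -0.27 ± 0.09 for Dusp6), against 13.7%. The adjusted p for Dusp14 was 1.09e-10 and for Dusp1 1.54e-07, and those of the other 6 lay between 2.66e-05 and 0.0301. The count of 3 fell to 1 without the replicate 2 library of clone 4 at 0h or the replicate 2 library of clone 8 at 2h, and that of 5 fell to 3 without the replicate 1 library of clone 8 at 4h.

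**Figure D5:**
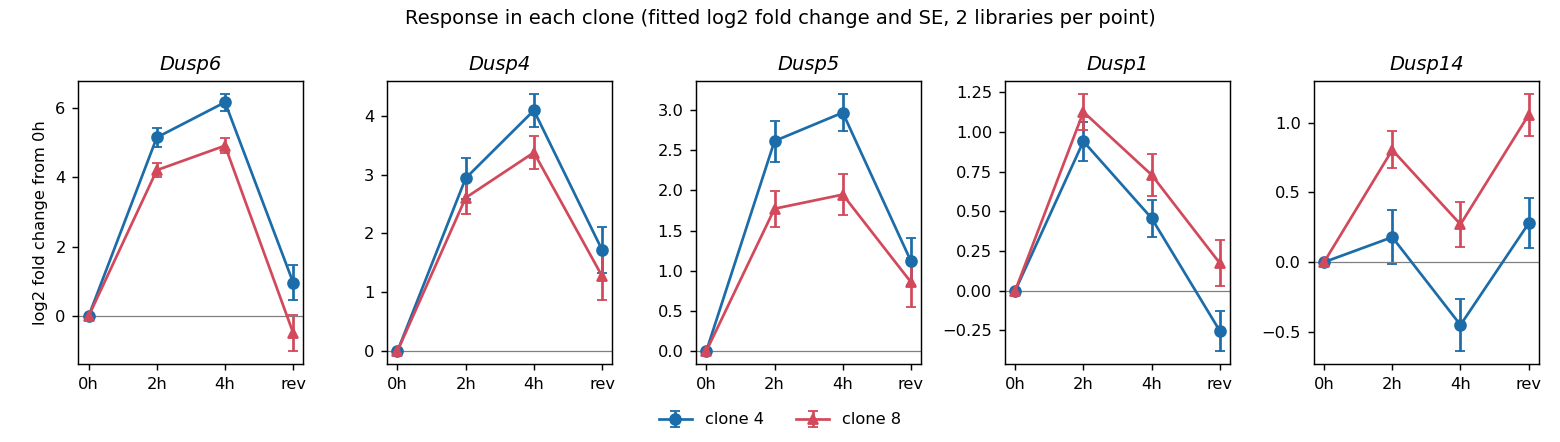
Fitted log2 fold change from 0h, with its SE, of 5 phosphatases in clone 4 (circles) and clone 8 (triangles), 2 libraries per point. Dusp6 is at 6.17 in clone 4 and 4.92 in clone 8 at 4h and at 0.97 and -0.48 in rev, and Dusp14 (-0.45 and 0.27 at 4h) is higher in clone 8 than in clone 4 at each point after 0h.

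Other genes around the phosphatases were counted from lists chosen by function. Of 16 further DUSP and STYX genes found in the table, 9 passed the filter, of which 2 rose at 2h (Dusp2 and Dusp11) and 3 at 4h (those and Dusp27), where 11.4% and 17.2% of all tested genes rose. Their median log2 fold change at 4h was -0.06. Dusp2, another nuclear inducible phosphatase, had 1 to 2 counts per library at 0h. Taking 3 counts in the shallowest 0h library as the limit, it was at least 3.43-fold higher at 2h (mean 2.80 ± 1.32 CPM) and at least 6.84-fold higher at 4h (5.57 ± 2.80 CPM), and it fell from 4h to rev (log2 -2.91 ± 0.27, adjusted p = 5.15e-10). Dusp11, an RNA phosphatase, rose modestly to 0.62 ± 0.08 at 4h (adjusted p = 2.98e-07). Among the MAP kinases that the phosphatases act on, 7 of 9 passed the filter. Mapk11, which encodes p38-beta, rose from 0.836 ± 0.565 CPM to 6.79 ± 2.82 CPM at 4h (log2 2.80 ± 0.32, adjusted p = 1.92e-08) and fell in rev (-2.02 ± 0.29, 4.27e-06). Mapk9, which encodes JNK2, was lower at 4h (log2 -0.35 ± 0.09, adjusted p = 0.00355). The median of the 7 was -0.09 at 4h.

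Of the 6 MAP kinase kinases, Map2k4, an activator of JNK, was higher at 4h (0.51 ± 0.10, adjusted p = 0.000170), and Map2k1 (-0.26 ± 0.08, 0.0115) and Map2k6 (-0.79 ± 0.15, 8.43e-05) were lower, with a list median of 0.05. Of 8 other phosphatases reported to act on MAP kinases, 6 were tested, and Ptpn7, Ppp2ca and Ppp2cb were higher at 4h. Ptpn7, a tyrosine phosphatase that binds ERK and p38, moved most (1.44 ± 0.29, adjusted p = 0.000225) and fell in rev (-1.01 ± 0.28, 0.00985). The Sprouty and Spred genes, which act upstream of ERK as feedback inhibitors, rose in 5 of 6 cases at 2h and at 4h and fell in 4 of 6 in rev, and their median log2 fold change at 4h was 1.15. At 4h, 17.2% of all tested genes were higher and 16.8% lower, and 8.43% fell in rev. These lists were chosen with results of the data known, and their counts carry no test of the list.

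Across the 16 libraries, after each clone's mean was removed, Dusp6 was most like Spry4 (Pearson r = 0.986 of log2 CPM), Zfp36l2 (0.986) and Cdc42ep4 (0.980) among 8646 genes with a mean of at least 5 CPM. Spry4 is the Sprouty gene with the largest rise here, from 0.998 CPM at 0h to 245 CPM at 4h and 3.12 CPM in rev. Genes close to Dusp4 were Pdpk1 (0.980) and Zfp281 (0.976). Dusp5 was most like Gad1 (0.965), Zswim4 (0.960) and Plaur (0.960), and Dusp1 most like Bsdc1 (0.947), Ubald1 (0.926) and Csrnp1 (0.926). Dusp14 was nearest to Ulk1 (0.925), Lrpap1 (0.902) and Fbrsl1 (0.886). The best likeness was lower for the 4 remaining tested phosphatases, at 0.870 for Dusp7 with Sall3, 0.851 for Dusp16 with Deptor, 0.838 for Dusp10 with Trim13 and 0.789 for Dusp9 with Fzd3. Among the phosphatases themselves, r was 0.933 between Dusp4 and Dusp6, 0.923 between Dusp4 and Dusp5, 0.902 between Dusp5 and Dusp6, 0.836 between Dusp1 and Dusp6, and 0.756 and 0.712 between Dusp1 and each of Dusp5 and Dusp4. The most negative values were those of Dusp10 with Dusp5 (-0.679), Dusp6 (-0.672), Dusp1 (-0.649) and Dusp4 (-0.577), of Dusp1 with Dusp7 (-0.676), and of Dusp14 with Dusp16 (-0.561). All these points share libraries and their depth, and the values describe this series only.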

How the data were processed

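The values are raw read counts per gene, deposited by the authors, whole in every cell and summing to another total for each library. Reads were handled with bcl2fastq 2.19.1, STAR 2.5.3a and mm10, per the submitters' processing notes, while the counting tool, the annotation and the use of strand are not given in the sources used here. Of 52636 identifiers, 52489 were matched to GENCODE M21 (GRCm38) for symbols, positions and merged exon lengths. The sample titles gave group, clone and replicate.

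Tests were run with edgeR 4.0.16 (limma 3.58.1, under R 4.3.3). Its filterByExpr left 12215 genes, TMM factors ranged from 0.463 to 1.47, and 1 quasi-likelihood fit with terms for group and clone took in the 16 libraries (biological coefficient of variation 0.0795), with two-sided contrasts and Benjamini-Hochberg adjustment over all tested genes at 0.05. A model with group-by-clone cells gave within-clone values and the tests between clones. A standard error is the absolute log2 fold change divided by the root of F, and CPM used the TMM-scaled library size. Likeness used log2 CPM with a prior count of 2, and within-library ratios added 0.5 to each count. The fitting scripts were tested on simulated data with known changes.

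The phosphatases, the other lists and the naming rule (all 10 members, called genes of the other lists, and the 3 most alike genes of each tested member) were chosen with earlier results of these data known, and 2 of the genes so named are not reported here. The ratio tests and the joint removal of 2 libraries were added after seeing the data. Alternatives covered scaling, filters, the clone term, a replicate block, the groups fitted, DESeq2 1.42.0, a fold limit, the abundant models and leaving out each library. Intervals of log2 fold changes come from the fit and include the spread between libraries, while count limits cover counting error only, since no molecular identifiers are described. The 2 libraries of each group and clone differed beyond counting noise (chi-square per degree of freedom from 2.97 to 79.4, abundant models included). Such a difference does not show that they came from separate cultures. Each library was counted as its own sample, and whether the 2 were independent is not known.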

Additional observations from a re-analysis of the deposited data

Results flagged for a closer look

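Of the 39 sets of 4 libraries examined (each phosphatase with a nonzero level in each group), 3 held a library whose gap to its nearest neighbour took up a larger share of the range of the 4 than Dixon's 95% critical value. Chance alone flags about 1 set in 20. Dusp8 was at 0.350 CPM in the replicate 2 library of clone 4 at 4h, while the other 3 libraries were at 0, which is 3 counts against 0. Dusp8 was also at 0.901 CPM in the replicate 2 library of clone 8 in rev, against 0.166 to 0.217 CPM in the others, where it had 1 to 2 counts in every library of the group. Dusp16 was at 37.5 CPM in the replicate 2 library of clone 8 at 2h, against 30.2 to 31.3 CPM in the others, and without that library its log2 difference from 0h passed the threshold in edgeR (-0.30, adjusted p = 0.0438).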

How the results depend on the processing

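The 24 member changes called in the 5 comparisons kept their direction under every alternative that refitted them (all but the fold limit): 621 repeats kept the call and 27, in 9 of the results, lost it. Calls for Dusp1, Dusp4, Dusp5 and Dusp6 at 2h and 4h against 0h, and for Dusp4, Dusp5 and Dusp6 from 4h to rev, held in all of those. With scaling by library size alone, members lower went from 1 to 0 at 2h and from 2 to 0 between 2h and 4h, members higher from 1 to 0 from 4h to rev, from 4 to 1 in rev against 0h and from 3 to 1 in clone 8, and the share of the rise lost in rev was 69.5% for Dusp4 and 74.0% for Dusp5. Without the clone term the same 4 counts between groups became 0, 0, 0 and 1. With the percent in the 8 abundant models as a covariate, members lower were 2 at 2h and 1 at 4h. Fitting only the 2 groups compared gave 2 members higher from 4h to rev. It also gave 3 higher between 2h and 4h, with Dusp7 added (0.36, adjusted p = 0.0395), and 3 higher in rev against 0h, without Dusp7. Requiring a log2 change of at least 1 left 4 higher and 0 lower at 2h, 3 higher at 4h and 3 lower from 4h to rev (both counts of 3 without Dusp1, at 0.59 and -0.65), 0 higher and 0 lower between 2h and 4h, 0 higher from 4h to rev, and 1 higher and 0 lower in rev against 0h. Leaving out 1 library at a time gave 0 to 2 lower at 2h, 0 to 1 lower at 4h, 1 to 2 higher from 4h to rev, 3 to 4 higher in rev against 0h, 1 to 3 higher and 3 to 5 lower in clone 8. The count of 0 lower at 4h became 1 without replicate 2 of either clone at 0h, replicate 2 of clone 4 at 4h or replicate 1 of clone 8 at 4h, and the last of these also gave the 2 higher in rev; 2 were lower at 2h without replicate 2 of clone 8 at 2h.

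Signs turned only for changes that were not called. By library size alone these were Dusp14 at 4h (0.0038), Dusp7 from 4h to rev (-0.15), and in rev against 0h Dusp6 (-0.094), Dusp9 (-0.13) and Dusp10 (-0.26). That scaling put the median log2 fold change of all genes at 0.09 at 4h, -0.41 from 4h to rev and -0.32 in rev against 0h. With the abundant models as covariate the signs that turned were those of Dusp14 at 4h (0.079), Dusp16 between 2h and 4h (-0.020) and Dusp9 from 4h to rev (0.0047). Dusp16 between 2h and 4h was also -0.018 without the low-count filter, -0.012 without the clone term and -0.011 with only those groups. Leaving out 1 library gave -0.22 to 0.087 for Dusp14 at 4h, -0.065 to 0.097 for Dusp16 between 2h and 4h, -0.11 to 0.057 for Dusp9 from 4h to rev, and in rev against 0h -0.14 to 0.017 for Dusp1, -0.15 to 0.44 for Dusp6 and -0.11 to 0.15 for Dusp10. The cause of these changes was not tested.

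Over all genes, library size alone cut the calls at 2h from 1390 higher and 1182 lower to 204 and 134, and cut or shifted the others as given beside the main counts. Without the clone term the counts, higher then lower, were 747 and 462 at 2h, 1323 lower at 4h, 129 and 90 between 2h and 4h, 418 and 463 from 4h to rev, and 876 and 576 in rev against 0h. The covariate gave 577 and 652 from 4h to rev. Leaving out replicate 2 of clone 8 at 0h gave 743 lower at 2h, and leaving out replicate 1 of clone 4 at 4h gave 644 higher from 4h to rev. Between 2h and 4h the range over left-out libraries was 303 to 510 higher and 260 to 457 lower, lowest without replicate 1 of clone 4 at 2h and at 4h. Same-numbered libraries shared little (mean residual r = 0.00369, from -0.117 to 0.0690 over 12 pairs), so no pairing by number was seen and the main fit used none. With 2 libraries per group and clone, these values cannot show that the samples were unpaired. With a replicate block, 2475, 4068, 794, 1949 and 2671 genes were called in the 5 comparisons in place of 2572, 4146, 894, 1999 and 2722, and the member counts were 5 higher and 1 lower at 2h, 4 and 0 at 4h, 2 and 2 between them, 1 and 4 from 4h to rev and 4 and 1 in rev against 0h. Depth limits Dusp8 entirely, and the 0h and rev levels of Dusp6 (4 to 16 counts) and the 0h level of Dusp4 (6 to 13 counts).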
